A study of Mus musculus with 6 samples.

Results

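The genes described here encode the proteins of the large subunit of the cytosolic ribosome. They were chosen by name and type: protein-coding loci called Rpl with a number, or Rplp0 to Rplp2, leaving out pseudogenes named with -ps. This gave 49 genes on 18 chromosomes, out of 28660 loci in the table and 17913 typed as protein coding. The libraries came from HL-1 cells, a line of mouse atrial cardiomyocytes that was grown in Claycomb medium with serum and norepinephrine. Nuclei were released by detergent and fractionated into a chromatin pellet extract (3 libraries) and a soluble nuclear extract (3 libraries), with ERCC spike-in RNAs, a set of synthetic standards, added to each fraction before RNA extraction. All libraries are from this line, with no genetic or drug treatment named, so the comparison is between 2 fractions of the same kind of nuclei, the pellet against the soluble extract. The authors deposited 1 pooled FPKM value per fraction (fragments per kilobase of transcript, scaled to library size), so no spread between replicates, no standard error and no p-value can be given, and sequencing depth is not known.

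The large subunit carries the centre that joins amino acids and the tunnel through which the new protein leaves, and it is built in the nucleolus from ribosomal RNA and proteins imported from the cytoplasm. Its protein genes are housekeeping genes whose short messages are among the most abundant in growing cells. These messages begin with a run of pyrimidines, the terminal oligopyrimidine tract, through which growth signals control their translation, and many of the genes carry small nucleolar RNAs (snoRNAs), the guides of ribosomal RNA modification, in their introns. In nuclei, a message can be found on chromatin while it is made and spliced, or free in the nucleoplasm on its way out.

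RefSeq (GRCm38.p6, the same build as mm10) gave a start region for 37 of the 49 genes. The windows below show 30 bases on each side of the start in that promoter table, on the transcribed strand, for the 3 genes with the lowest and the 3 with the highest pellet over soluble fold among the 31 genes with a single start there. They are shown as examples of start regions from both ends of the order. For 27 of the 31 that start is also the start of the annotated gene. For the other 4 it is not, among them Rpl38, whose annotated gene begins 762 bp upstream of the start shown, so that more than one start is possible. Capitals mark CTTTC, a motif often found in that run.
Rplp2: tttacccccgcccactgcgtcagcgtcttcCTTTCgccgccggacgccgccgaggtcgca
Rpl28: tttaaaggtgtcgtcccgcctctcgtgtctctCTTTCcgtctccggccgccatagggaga
Rpl38: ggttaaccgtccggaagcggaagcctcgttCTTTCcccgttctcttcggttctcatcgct
Rpl10: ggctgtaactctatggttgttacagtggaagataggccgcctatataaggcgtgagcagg
Rpl27a: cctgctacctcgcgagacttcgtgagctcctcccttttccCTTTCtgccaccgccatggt
Rpl22l1: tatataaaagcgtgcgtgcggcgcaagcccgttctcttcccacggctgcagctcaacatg
These lie at chr7:141447621-141447680 (Rplp2), chr7:4792935-4792994 (Rpl28), chr11:114668550-114668609 (Rpl38), chrX:74270786-74270845 (Rpl10), chr7:109519165-109519224 (Rpl27a) and chr3:28805478-28805537 (Rpl22l1), all on the plus strand. Among the printed windows, CTTTC is in all 3 genes at the low end of the order and in 1 of the 3 genes at the high end, Rpl27a. A window without CTTTC can still hold other pyrimidine stretches, as that of Rpl22l1 does. Over all genes with a window, those with CTTTC had the slightly higher median fold. The contrast among these few windows therefore does not describe the whole set.

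Over all 37 genes, 15 (40.5%) held CTTTC on the transcribed strand of this window of 60 bases, against 7.65% of 1437 other protein-coding genes of at least 30 FPKM and 9.18% of all 27025 genes with a RefSeq start region. Anywhere in the 300 bases around the start, on both strands, the share was 86.5% for the large subunit genes, 58.5% for the other genes of at least 30 FPKM and 60.6% for all genes. CCGGAAG, the core recognised by ETS factors, was in 14 of the 37 (37.8%), in 23.0% of the other genes of at least 30 FPKM and in 9.93% of all genes, searched the same way. AAGATGGC, part of the site of the factor YY1, was in 4 of the 37 (10.8%), in 6.89% of the other genes of at least 30 FPKM and in 3.19% of all genes. In 1 of the genes a CTTTC match and an AAGATGGC match shared bases. The 15 genes with CTTTC near the start had a median log2 fold of -1.40, with 12 at least 2-fold lower in the pellet. The 21 genes without it that passed the level filter had -1.55, with 16 lower. These matches describe letters only.

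Nearly all large subunit messages were lower in the chromatin pellet than in the soluble extract. The fold given here is the log2 of pellet FPKM times 3.37 over soluble FPKM, where 3.37 is the slope of soluble on pellet FPKM over 82 spike-ins. It is called the spike-in scale, and it reads as an amount only if both fractions received equal spike-in amounts. Counts take in loci whose 2 FPKM values average 0.5 or more, which kept 48 of the 49 genes and 13917 loci in all. Of the 48, 39 (81.2%) were at least 2-fold lower in the pellet, 0 were higher and 9 lay within 2-fold, beside 10.5% lower and 31.9% higher among all loci, and 10.6% lower and 24.0% higher among protein-coding loci. At a bound of 3-fold 19 were lower, beside 3.26% of all loci, and at 1.5-fold 44 were lower, beside 19.1%. The median of their log2 folds was -1.47, with the middle of the distribution between -1.68 and -1.08 (quartiles), or 2.76-fold lower, beside 0.41 for all loci and 0.26 for protein-coding loci. The large subunit genes ran from -2.05 to 0.16, and 47 of the 48 lay below 0, beside 36.4% of all loci and 40.1% of protein-coding loci. The median gene had 26.6% of its summed spike-scaled signal in the pellet, where the median protein-coding locus had 54.6%.

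Other abundant messages of short genes also lay on the soluble side. Among 493 other protein-coding loci that averaged 30 FPKM or more and have a RefSeq span under 10 kb, bounds chosen after the values were seen, 61.1% were at least 2-fold lower in the pellet and 2.03% higher. Their median log2 fold was -1.21, and 91.5% lay below 0. These 493 include small subunit protein genes. With those left out, 59.2% of the 448 loci that hold no snoRNA gene were lower, with a median of -1.17. Of the 14 that hold one, 5 were lower, with a median of -0.56. Without the bound on span, 31.8% of protein-coding loci of at least 30 FPKM were lower, with a median of -0.50. How far level and gene length account for the large subunit values was not tested. Without the spike-in factor, on the FPKM scale, every log2 value is lower by 1.75, all 48 genes were at least 2-fold lower (-3.80 to -1.59), and so were 61.2% of all loci.

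**Figure D1:**
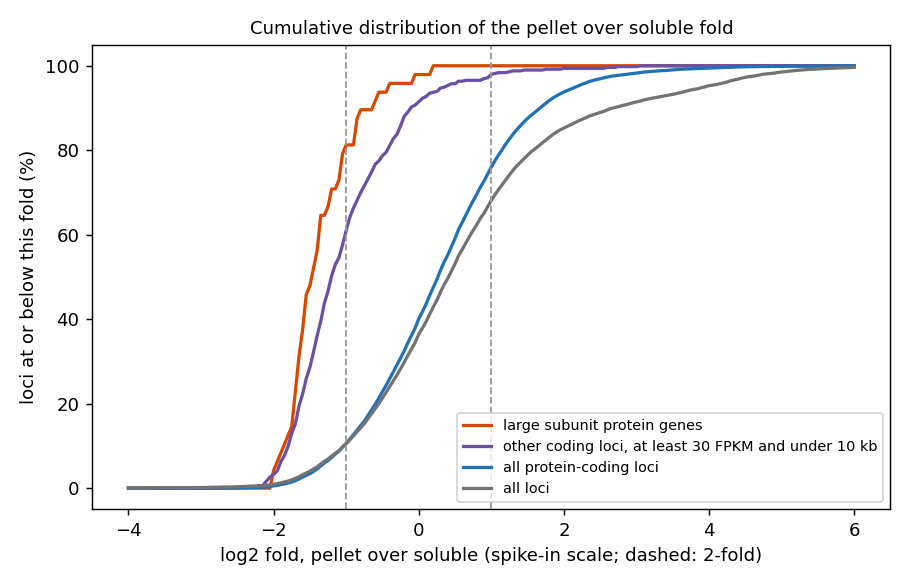
Share of loci (vertical axis, percent) at or below each log2 fold of pellet over soluble on the spike-in scale (horizontal axis), with dashed lines at 2-fold either way. The curve of the 48 large subunit genes lies left of the others over most of its range, with 81.2% at least 2-fold lower. The share was 61.1% for other short abundant coding loci, which include small subunit protein genes, and 10.5% for all loci.

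The spread among these genes was larger than that of the spike-ins. Their log2 folds had an SD of 0.49 (n = 48 genes), against 0.12 for the 47 spike-ins of at least 0.5 FPKM and 0.09 for the 25 of at least 5 FPKM. The spike-in scatter is technical and covers neither the fractionation nor the cells. Ordered by fold, 5 of the 47 gaps between neighbouring genes exceeded 0.12, all at the upper end, starting between Rpl30 and Rpl3. Below that, neighbours did not differ beyond the spike-in scatter. Of the genes, 7 lay within 0.12 of the 2-fold line, so the count of 39 depends on small shifts there.

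**Figure D2:**
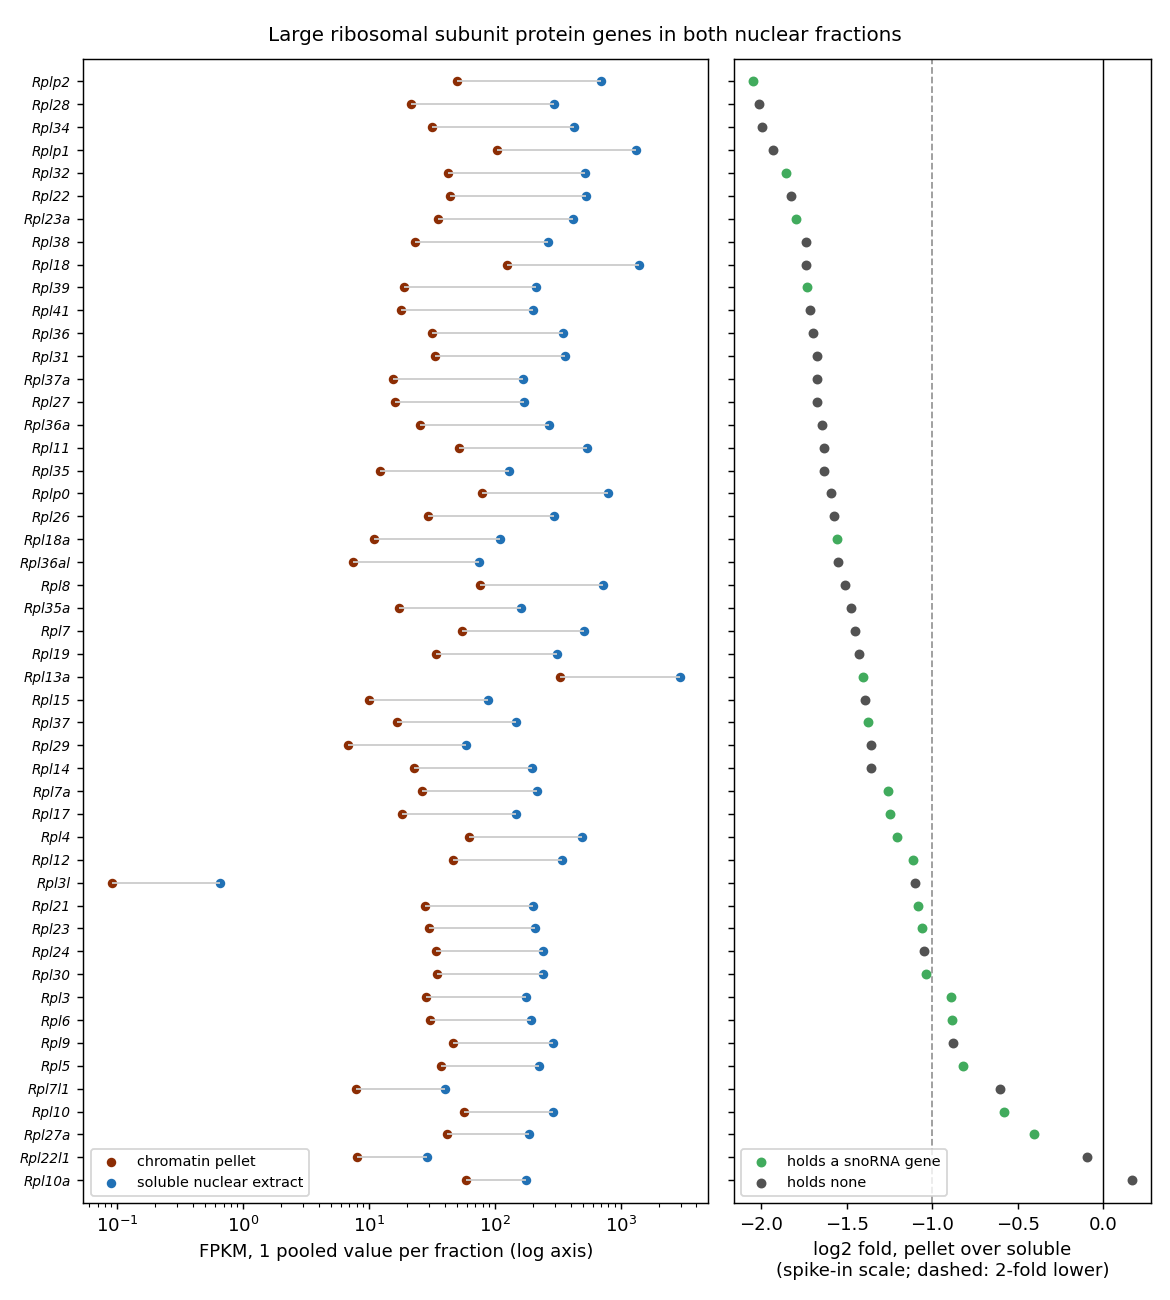
Left, pellet and soluble FPKM of all 49 genes on a log axis, 1 pooled value per fraction. Right, the log2 fold of pellet over soluble on the spike-in scale, with genes that hold a snoRNA gene in green. Genes run from the most soluble, Rplp2 (-2.05), to Rpl10a (0.16), and Rpl3l lies far below the rest in level.

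The stalk proteins, which recruit the GTPases of translation to the ribosome, had messages among the most abundant of these genes. Those of Rplp2 and Rplp1 were also among the most soluble. Rplp2 had 50.1 FPKM in the pellet and 699.8 in the soluble extract, a log2 fold of -2.05, the lowest of all 48. Rplp1, its partner in the stalk dimers, had 103.7 FPKM in the pellet and 1332 in the soluble extract, a log2 fold of -1.93. Rplp0, the base that anchors the dimers, had 78.6 FPKM in the pellet and 798.6 in the soluble extract. Its log2 fold of -1.59 was the 19th lowest, near the median of -1.47. All 3 were at least 2-fold lower in the pellet, beside 39 of the 48 large subunit genes.

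The other genes at the low end of the order encode core subunit proteins. Rpl28 had 21.5 FPKM in the pellet and 293.4 in the soluble extract, a log2 fold of -2.01. Rpl34 had 31.6 in the pellet and 425.4 in the soluble extract, next to it in the order. Rpl32 had 42.7 in the pellet and 521.4 in the soluble extract, a log2 fold of -1.85. The pellet held 19.8% of the summed spike-scaled signal of Rpl28 and 21.7% of that of Rpl32, with Rpl34 between them.

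The messages of the proteins that line or surround the exit of the peptide tunnel were on the soluble side. All 9 listed genes were at least 2-fold lower in the pellet, beside 39 of the 48 large subunit genes. Their median log2 fold was -1.63, with a range of -1.83 to -1.21, beside a median of -1.47 for the 48. Rpl22 was lowest of the 9, with 44.2 FPKM in the pellet and 529.1 in the soluble extract. Rpl39, whose small protein lines the tunnel wall, had -1.73, with 18.9 FPKM in the pellet and 212.5 in the soluble extract. Rpl17 (-1.25) and Rpl4 (-1.21), whose proteins reach into the narrow part of the tunnel, were the nearest to balance. Of the 9 genes, 4 hold snoRNA genes: these 2, and Rpl23a (-1.80) and Rpl39, which with Rpl22 are the lowest of the list. Rpl4 had 62.9 FPKM in the pellet and 490.7 in the soluble extract.

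The messages of the pair of proteins that binds the 5S ribosomal RNA were split. Rpl5 and Rpl11 proteins enter the subunit together with that RNA, and when they are not assembled they bind Mdm2, the ubiquitin ligase of p53. Rpl11 had 52.0 FPKM in the pellet and 545.2 in the soluble extract, a log2 fold of -1.64. Rpl5 had 37.3 in the pellet and 222.5 in the soluble extract, a log2 fold of -0.82 and inside the 2-fold bound. In RefSeq, Rpl5 holds snoRNA genes and Rpl11 holds none. The loci also differ in the table. That of Rpl5 spans 86584 bp and is assembled with Fam69a and snoRNAs, against 8498 bp in RefSeq. That of Rpl11 spans 25164 bp, against 4040 bp in RefSeq, and shares its coordinates with no other locus. Whether either difference bears on the folds was not tested.

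Rpl10a was the single gene above 0. Its protein forms the mobile L1 stalk, through which spent transfer RNA leaves. The gene lies at chr17:28328471-28331033. It had 58.5 FPKM in the pellet and 176.2 in the soluble extract, a log2 fold of 0.16, with 52.8% of its signal in the pellet, and on the FPKM scale it lies at -1.59. In the pellet it was the 7th most abundant large subunit message, but the 36th in the soluble extract. No other locus shares its coordinates in the table. Rpl10a-ps1, a processed pseudogene of Rpl10a, stood at 17.7% of its soluble FPKM and had a log2 fold of -1.15, with 4.18 FPKM in the pellet and 31.2 in the soluble extract. Fragments that match both could have been assigned to either, and this was not tested.

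Between Rpl10a and the 2-fold bound lay 8 more genes. Rpl27a had 41.9 FPKM in the pellet and 186.9 in the soluble extract, a log2 fold of -0.40. Rpl10, whose protein joins late in maturation beside the catalytic centre, had 57.0 in the pellet and 288.0 in the soluble extract, a log2 fold of -0.58. Rpl3 (-0.89), Rpl6 (-0.89) and Rpl9 (-0.88) lay just inside the bound, with Rpl5 at -0.82. Just outside were Rpl30 (-1.04), Rpl24 (-1.05) and Rpl23 (-1.06). The remaining 2 within the bound were the paralogs Rpl7l1 and Rpl22l1.

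The messages of paralogs of canonical proteins were low in level, and 2 of them were less soluble than those of their counterparts. Rpl22l1, whose message the Rpl22 protein is known to repress in mice, had 8.03 FPKM in the pellet and 28.9 in the soluble extract, a log2 fold of -0.10. Rpl22 itself had -1.83, so the paralog was higher by 1.73 on the log2 scale. It reached 18.2% of the level of Rpl22 in the pellet and 5.47% in the soluble extract. Rpl7l1, a factor related to Rpl7, had 7.88 FPKM in the pellet and 40.5 in the soluble extract. Its log2 fold was -0.61, higher by 0.85 than that of Rpl7 (-1.45). Its locus in the table spans 388966 bp and is assembled with Srf, Mrpl2 and other genes, against 8750 bp in RefSeq.

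Rpl36al, a near copy of Rpl36a, lay close to its counterpart. It had 7.51 FPKM in the pellet and 74.3 in the soluble extract, a log2 fold of -1.55, against -1.65 for Rpl36a, a difference of 0.09 that is below the spike-in SD. Rpl3l, the form of Rpl3 that striated muscle makes, was very low in this cardiomyocyte line. It had 0.0908 FPKM in the pellet and 0.657 in the soluble extract, or 0.318% and 0.368% of Rpl3. It did not reach the level filter and is the 1 gene not counted, with a log2 fold of -1.10. Rpl3 had 28.6 FPKM in the pellet and 178.6 in the soluble extract.

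Levels varied widely, although most of these proteins are present in the same number per ribosome. Among the 48 genes the pellet FPKM ran from 6.78 to 330.8, with a median of 31.2, and the soluble FPKM from 28.9 to 2952, with a median of 240.2. The SD of log2 FPKM was 1.10 in the pellet and 1.24 in the soluble extract. The levels in the 2 fractions went together, with a Spearman rho of 0.85 across the 48 genes, which share the same pooled libraries and transcript lengths. More abundant genes tended to have lower folds (rho of -0.47 with soluble FPKM, which is itself part of the fold), and gene span showed little relation to the fold (rho of 0.10). By soluble level, 6 genes had 600 FPKM or more, 37 had 100 to 600 and 5 had under 100.

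Rpl13a stood far above the rest, with 330.8 FPKM in the pellet and 2952 in the soluble extract, or 16.6% and 16.0% of the summed FPKM of the 49 genes. Its log2 fold was -1.40. RefSeq places it at chr7:45125563-45128745, and it shares its table coordinates with 4 snoRNAs and with Flt3l. Rpl18 followed with 125.0 FPKM in the pellet and 1407 in the soluble extract, and a log2 fold of -1.74. The lowest canonical gene was Rpl29, with 6.78 FPKM in the pellet and 58.5 in the soluble extract, and a log2 fold of -1.36. Together the 49 genes took 0.24% of the summed FPKM of the pellet and 1.94% of that of the soluble extract. Over protein-coding loci alone these shares were 1.92% and 4.78%. Of the 100 most abundant protein-coding loci, 5 in the pellet and 12 in the soluble extract were large subunit genes.

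Genes that hold a snoRNA gene were less soluble than the others at the median. By position, 19 of the 48 genes held at least 1 snoRNA gene inside their RefSeq span. Strand was not available for the snoRNAs, so position alone was used. Their median log2 fold was -1.21 (14 of 19 at least 2-fold lower), against -1.59 (25 of 29 lower) for the genes that hold none, a difference of 0.38. The ranges overlapped almost fully: hosts ran from -2.05 (Rplp2) to -0.40 (Rpl27a) and the others from -2.01 (Rpl28) to 0.16 (Rpl10a). The direction was the same among small subunit protein genes, with -1.51 for 10 hosts and -1.68 for 23 others. Among other coding loci of at least 30 FPKM and under 10 kb, with genes of both subunits left out, it was -0.56 for 14 hosts and -1.17 for 448 others. With 1 pooled value per fraction none of these differences can be tested.

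**Figure D3:**
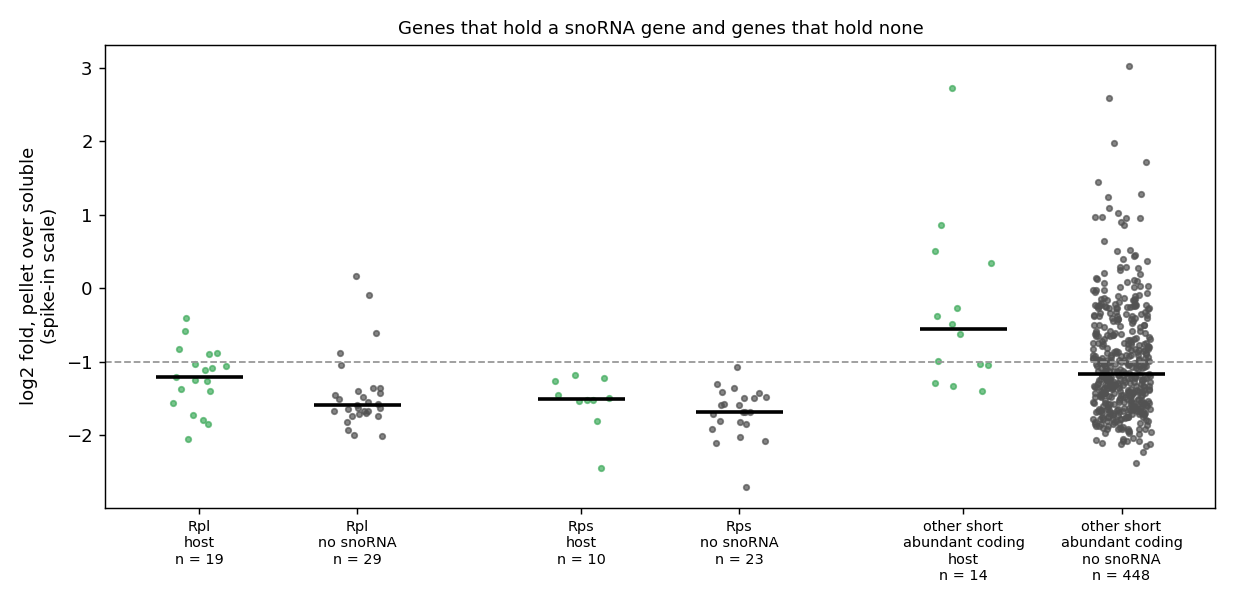
Log2 fold of pellet over soluble on the spike-in scale (vertical axis) for genes that hold a snoRNA gene (green) and genes that hold none (grey), with medians as bars and a dashed line at 2-fold lower. Hosts have the higher median in all 3 sets (Rpl -1.21 against -1.59, Rps -1.51 against -1.68, other coding loci -0.56 against -1.17), with broad overlap.

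The snoRNAs themselves were found on the other side. The table listed 30 snoRNAs assembled at the same loci as these 19 hosts, of which 23 are named by RefSeq inside the host. Of the 30, 28 stood 2-fold or more above in the pellet and 1 was lower, beside 31.9% higher and 10.5% lower among all loci. The median log2 fold was 3.37, or 1.62 on the FPKM scale. There 21 of the 30 were higher, beside 1344 of 13917 loci. Whether snoRNAs outside these hosts have similar folds was not tested. All 30 snoRNAs listed with these hosts had a higher fold than their host. The length correction behind FPKM is uncertain for RNAs this short.

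Rpl13a carries 4 C/D box snoRNAs. Snord33 had 4199 FPKM in the pellet and 374.1 in the soluble extract (log2 fold 5.24), and Snord34 had 4232 and 378.9 (5.24). Snord35a had 1170 in the pellet and 229.9 in the soluble extract (4.10), and Snord32a had 5425 and 1748 (3.39). The host of these strongly pelleted RNAs was itself soluble at -1.40. In Rpl10, Snora70 had 1121 FPKM in the pellet and 114.1 in the soluble extract (5.05), beside a host at -0.58.

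A high snoRNA in the pellet was not always matched by a less soluble host. Snora52, an H/ACA guide inside Rplp2, had 2971 FPKM in the pellet and 1603 in the soluble extract (2.64), although Rplp2 was the most soluble gene. Snora7a inside Rpl32 had 947.1 in the pellet and 198.1 in the soluble extract (4.01), beside a host at -1.85. Snord16a inside Rpl4 had 3289 FPKM in the pellet and 438.8 in the soluble extract (4.66), beside a host at -1.21. Snord83b inside Rpl3 had 1076 in the pellet and 419.3 in the soluble extract (3.11), beside a host at -0.89. Snora3 inside Rpl27a, the least soluble host, had 349.9 in the pellet and 218.0 in the soluble extract (2.44). So hosts at both ends of the order carried snoRNAs with positive folds. Snora69 inside Rpl39 was among the lower ones, with 138.9 in the pellet and 166.3 in the soluble extract (1.49). The exceptions were both in Rpl23a, where Snord42b had 9.19 in the pellet and 95.8 in the soluble extract (-1.63) and Snord4a had 29.3 and 97.8 (0.01). Whether fragments of snoRNAs or introns enter the host values was not tested.

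**Figure D4:**
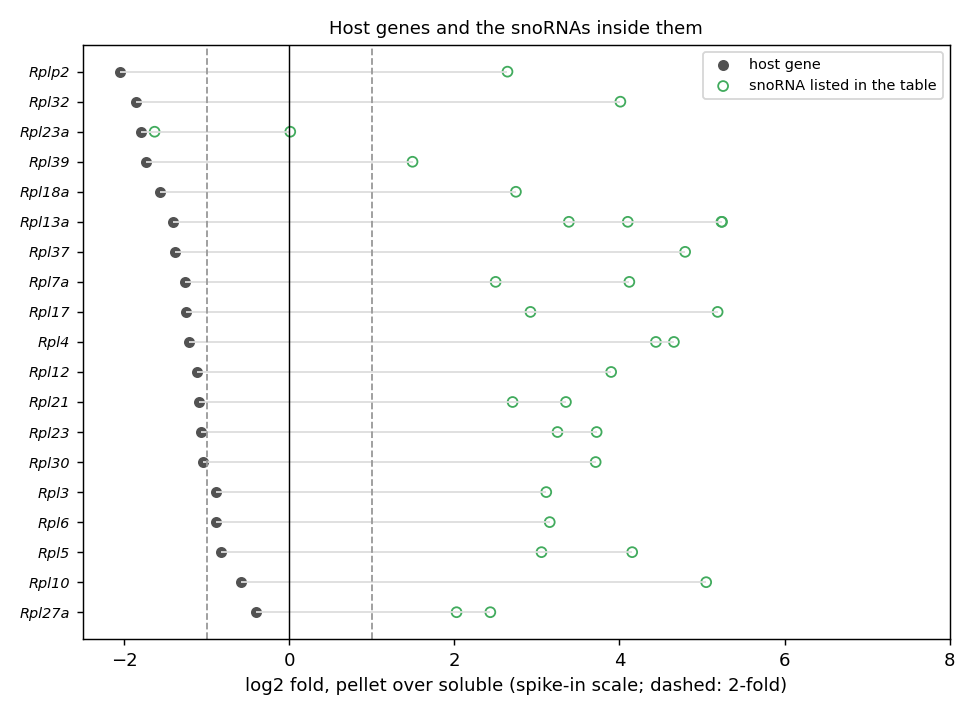
Log2 fold of pellet over soluble on the spike-in scale (horizontal axis) for the 19 host genes (filled) and the snoRNAs listed with them (open), hosts ordered from the most soluble at the top. Every snoRNA lies to the right of its host, and those of Rpl23a lie nearest to it.

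Copies and overlaps limit some values. The table lists 91 pseudogenes named after large subunit genes, of which 15 passed the level filter and 76 did not, and 8 are typed as protein coding. Together they had 34.4 FPKM in the pellet and 323.2 in the soluble extract, against 1996 and 18414 for the 49 genes. In 4 cases a copy named with -ps reached 10% or more of the soluble FPKM of its gene. Rpl39-ps stood at 35.3% of the soluble FPKM of Rpl39 and had a log2 fold of -1.71 beside -1.73 for Rpl39. Rpl28-ps3 had -2.27 beside -2.01 for Rpl28, and Rpl36a-ps1 had -1.77 beside -1.65 for Rpl36a. Rpl37rt, named after Rpl37 but without -ps, is not in these counts. It had 7.09 FPKM in the pellet and 87.1 in the soluble extract, against 16.8 and 147.4 for Rpl37. Its log2 fold was -1.86 beside -1.38 for Rpl37. The values of these genes and copies are uncertain, since near-identical sequences can exchange fragments. Of the 49 genes, 27 share their table coordinates with another locus, 14 of them with one that is not a snoRNA.

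Small subunit genes gave similar values and mitochondrial ones were closer to balance. All 33 Rps genes that passed the filter were at least 2-fold lower in the pellet, with a median log2 fold of -1.57. Of 48 Mrpl genes, which encode the large subunit of the mitochondrial ribosome, 24 were lower and 1 was higher, with a median of -0.99. These differences from the large subunit genes carry no test.

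The messages of most factors that build the large subunit lay within 2-fold. Of 42 in the table, 7 (16.7%) stood 2-fold or more above in the pellet, 1 (2.38%) was lower and 34 lay within, beside 24.0% higher and 10.6% lower among protein-coding loci, so the share on the pellet side was no larger than the background. The factors had a median log2 fold of 0.14 that turns to -1.61 without the spike-in factor. There 33 factors were lower and 0 higher. Nvl, an ATPase that acts on particles leaving the nucleolus, had 12.1 FPKM in the pellet and 8.51 in the soluble extract, a log2 fold of 2.26. Mdn1, the giant ATPase that strips assembly factors, had 23.2 in the pellet and 16.9 in the soluble extract, a log2 fold of 2.21. Both stay above 0 on the FPKM scale, at 0.51 and 0.46. Nop16 was the single one lower, at -1.17, with 2.44 FPKM in the pellet and 18.5 in the soluble extract. Eif6, which keeps free large subunits from joining small ones, had 30.2 FPKM in the pellet and 203.5 in the soluble extract and lay at the bound.

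The cell line carried its cardiomyocyte markers. All 7 listed markers analysed here passed the level filter. Nppa, the atrial natriuretic peptide gene, was lowest, at 0.208 FPKM in the pellet and 1.63 in the soluble extract, and Myl7, the atrial light chain, had 131.3 in the pellet and 1119 in the soluble extract. The leucocyte marker Ptprc was near 0, at 0.00736 in the pellet and 0.0110 in the soluble extract, and the endothelial Cdh5 at 0.000152 and 4.98e-05. Other markers of these types were higher. The endothelial Kdr had 1.62 FPKM in the pellet and 5.52 in the soluble extract, above Nppa. The immune marker Cd68 had 0.569 and 0.711. Acta2 and Col3a1, smooth muscle and fibroblast markers, were high, with 222.8 and 87.0 FPKM in the pellet and 1539 and 340.5 in the soluble extract. Of the markers analysed here, 3 of 4 for fibroblasts, 2 of 4 for endothelium, 1 of 3 for immune cells and 3 of 3 for smooth muscle passed the level filter. In bulk RNA, fewer cells of a type and less RNA per cell cannot be told apart. The part of other cell types in the values of the large subunit genes was not tested.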

How the data were processed

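RNA of chromatin pellet and soluble nuclear extract (3 libraries each) was depleted of ribosomal RNA and sequenced with strand-specific libraries, per the labels' protocols. The submitters' processing notes list the genome build mm10 and the tools Cufflinks, Cuffdiff, HISAT2, bedtools and SAMtools, without versions or roles. The authors deposited 1 pooled FPKM per fraction. They also deposited a rescaled pellet signal, the total signal, its ratio to the soluble value (a fold) and the log10 of both. Depth is not given. Of 30687 lines, 1945 repeats of an identifier were dropped. Folds were recomputed from the FPKM columns with no pseudocount, using the least-squares spike-in factor of 3.37. The rescaled pellet signal deposited by the authors equals pellet FPKM times this factor, within 4.7e-07 percent. A count test or limma cannot be run on pooled values, so counts and medians replace the test. Calculations used Python 3.11.15 and pandas 2.3.3, and were tested on simulated data. Coordinates are those of RefSeq on GRCm38.p6. snoRNA hosts were set by position, since strand was not given for snoRNAs. Protein sequences were not used here. The members and gene lists were chosen with earlier results of these data known. Genes given with values are the stalk, 5S and tunnel genes, the paralogs, the 5 lowest and highest folds, the 3 highest and lowest levels, snoRNA hosts and up to 2 factors each way. Genes near the 2-fold bound were added after their values were seen. Rpl13, Rpl10l, Rpl26l1 and Rpl39l were not analysed here.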

Additional observations from a re-analysis of the deposited data

How the results depend on the processing

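No paired analysis was possible because the deposited columns pool the replicates, and for the same reason no library could be left out. Of 48 large subunit genes, 39 were at least 2-fold lower in the pellet. This became 37 with the median spike-in factor, 48 on the FPKM scale and 44 at a 1.5-fold bound. A pseudocount left 39, as did level filters of 1 and 5 FPKM, which kept the same 48 genes. With no level filter 40 of 49 were lower. Removal of the paralogs left 38 of 45 lower. Removal of genes with abundant pseudogenes named with -ps (chosen after seeing the data) left 36 of 44, with Rpl37 kept. In each setting 0 were higher. At 3-fold 19 were lower, beside 3.26% of all loci. Without genes that share table coordinates, 18 of 21 were lower with a median log2 fold of -1.64. That filter left out all 19 snoRNA hosts, whose median was -1.21, along with some of the other genes. Without the spike-in factor the large subunit median was -3.22, beside -3.33 for Rps and -2.74 for Mrpl genes (47 lower), all by the constant shift. There the biogenesis factors had 0 higher, 33 lower and a median of -1.61, which reverses its sign. The genes' share of the summed FPKM was 1.92% (pellet) and 4.78% (soluble) over protein-coding loci, and 1.73% and 4.62% without small RNAs and loci under 200 bp. The SD of log2 soluble FPKM was 1.07 without the paralogs. The snoRNA host difference of 0.38 was 0.42 without the paralogs. It was 0.39 without genes sharing coordinates with a locus other than a snoRNA. The FPKM scale could not change it, since the factor cancels in a difference. A level filter on the snoRNAs kept the same 19 hosts and so the same value. Medians were called moved past the spike-in SD of 0.12, since replicates give no spread. Depth is unknown, so values near the bound cannot be given an interval.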

Other observations

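Genes for ribosomal RNA synthesis and modification, a list not used above, also lay mostly within 2-fold. Of 15, 2 (13.3%) stood 2-fold or more above in the pellet, by spike-in-scaled values, 1 (6.67%) was lower and 12 lay within, beside 24.0% higher and 10.6% lower among protein-coding loci, so neither share exceeded the background. The list had a median log2 fold of -0.01 that becomes -1.76 on the FPKM scale. Taf1d, a subunit of the factor that recruits RNA polymerase I, had 46.1 FPKM in the pellet and 32.4 in the soluble extract, a log2 fold of 2.26. Polr1b, the second largest subunit of that polymerase, had 5.62 in the pellet and 8.71 in the soluble extract, a log2 fold of 1.12 that turns to -0.63 on the FPKM scale. Polr1d was the one lower, at -1.09, with 6.38 FPKM in the pellet and 45.8 in the soluble extract. Npm1, the nucleolar chaperone, had 73.1 in the pellet and 487.8 in the soluble extract, a log2 fold of -0.98.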
